A study of Homo sapiens with 6 samples.

Results

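The genes described here are 10 mouse genes of the extracellular matrix made by connective tissue cells: Col1a1, Col1a2, Col3a1, Col5a1, Col5a2, Col6a1, Col6a2, Fn1, Sparc and Lox. They were taken by mouse Ensembl gene ID, and all 10 were found among the 77134 rows of the deposited table. All 10 had counts above 0 in every library and were among the 12637 genes tested. The samples were 6 tumours grown under the skin of BALB/c nude mice, a strain without a thymus and so with few T cells, from A549, a human lung adenocarcinoma cell line. In 3 control tumours the cells carried the lentiviral vector pLV-CMV-EGFP-Neo, and in 3 overexpression tumours they carried pLV-CMV-HIF1A-AS3-EGFP-Neo, so the fluorescent reporter and the resistance gene were shared by both groups. HIF1A-AS3 is transcribed antisense to HIF1A, the human gene of a hypoxia-inducible factor subunit. The alteration was therefore in the implanted human cells, while the rows of the table are mouse genes, which describe host cells together with whatever human RNA was assigned to them by similarity. The labels state neither the number of mice nor their age, so p-values measure only the spread between these tumours.

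Fibrillar collagens are built as rods of 3 chains. Type I collagen, the main fibre of skin, tendon and tumour stroma, joins chains from Col1a1 and Col1a2. Type III, from Col3a1 alone, and type V, mostly from Col5a1 and Col5a2, assemble into the same fibrils, where type V helps to start a fibril and limit its width. Type VI forms beaded filaments at the cell surface from Col6a1, Col6a2 and further chains. Fibronectin, from Fn1, binds integrins and guides collagen deposition, Sparc encodes a collagen-binding matricellular protein, and Lox encodes an enzyme that starts the cross-linking of collagen and elastin. In tumours these genes are known mainly from fibroblasts and pericytes, though carcinoma cells can make fibronectin too.

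Library totals ran from 4167784 to 4769157 estimated counts. Overexpression replicate 1 stood apart from the other 5 libraries before any matrix gene was considered. It had the largest total but the smallest TMM factor, 0.742 against 1.02 to 1.10, and 17356 genes with a count of 1 or more, where the others had 18753 to 19010. TMM is a scaling that sets most genes level between libraries, and levels below are CPM, counts scaled to a common library size, after that step. Values without this library are given beside those that it moves most. Other genes could not be named, so the level of fibroblast, pericyte or other cell markers was not analysed here, and the word stroma rests on what the 10 genes are known for. In whole tumours, fewer stromal cells and less RNA per cell cannot be told apart.

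The comparison asked how the level of host matrix genes differed between overexpression and control tumours. None of the 10 genes passed the test. Col3a1 was above all controls in all 3 overexpression tumours, on average by a factor of 1.55 (95% interval 1.02 to 2.38), with an adjusted p of 0.70 in edgeR's quasi-likelihood test (Benjamini-Hochberg over all genes tested). Adjusted p values of the other 9 ran up to 0.99 from 0.77 in the same edgeR test. Over all genes tested, 0.0158% passed an adjusted p of 0.05, so a count of 0 among 10 genes sets them apart in no way. At an unadjusted p below 0.05 there was 1 of the 10, Col3a1, against 6.29% of all genes tested. Its p was 0.0827 to 0.15 without overexpression replicate 3 or any 1 control, 0.12 with library totals in place of TMM and 0.128 with a replicate block, all in edgeR. In edgeR it was 0.0152 without overexpression replicate 1 (adjusted p 0.999) and 0.0235 without overexpression replicate 2 (adjusted p 0.181). With all tumours it was 0.0324 in limma-voom (adjusted p 0.706) and 0.000864 in DESeq2 (adjusted p 0.225). Without overexpression replicate 1 there were 2 of the 10 with an unadjusted p below 0.05 in edgeR, Col1a2 and Col3a1, and 614 genes over the whole table. The number of genes tested in that fit was not kept, so no share stands beside the 2 of 10. With all 6 tumours 795 of the 12637 genes tested had such a p in edgeR. Log2 fold changes were positive for 5 and negative for 5 of the 10, against 50.6% positive over all genes. Positive values numbered 9 of the 10, all but Col6a2, without overexpression replicate 1. Over the whole table the median in that fit was -0.013, and the share of positive values was not counted. The 10 genes are not independent, so the 9 cannot be read as 9 separate rises. With all 6 tumours, the median log2 fold change of the 10 genes was 0.07 beside 0.01 for all genes tested. The values that follow concern the order of the tumours and the balance between the genes more than a difference between group means.

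**Figure D1:**
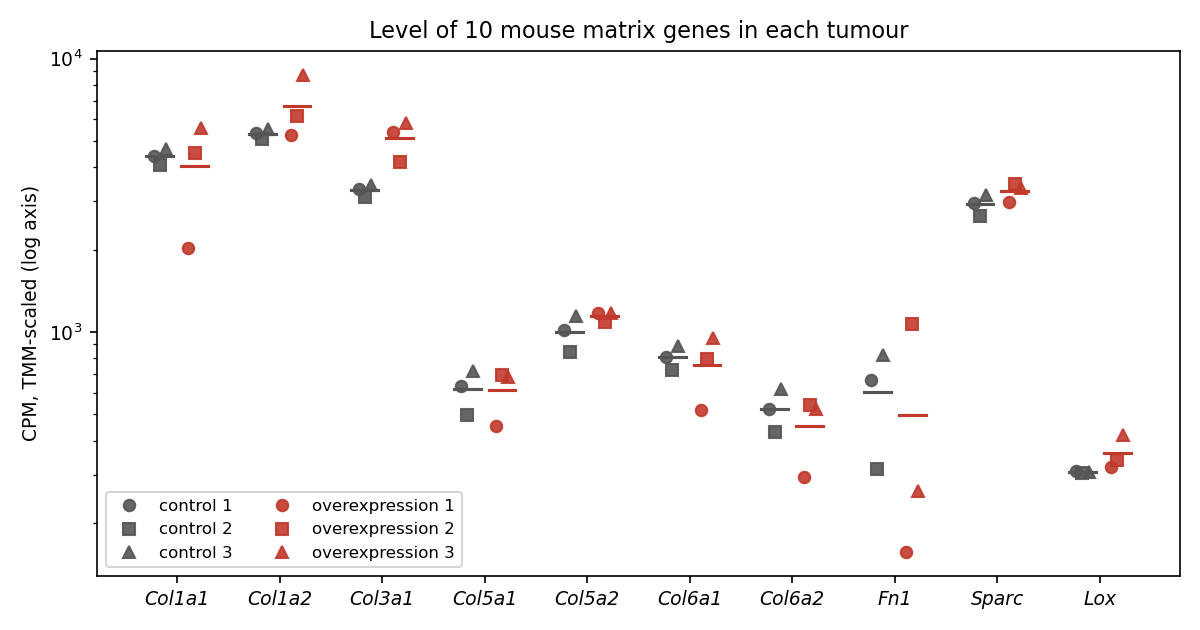
CPM (log axis) of each of the 10 genes in the 3 control tumours (grey) and the 3 overexpression tumours (red), with symbols for replicates 1 to 3 and a line at each group mean. The grey points lie close together except for Fn1, and overexpression replicate 1 is the lowest of all 6 points for Col1a1, Col5a1, Col6a1, Col6a2 and Fn1 but lies above all controls for Col3a1.

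Of the type I chains, Col1a1 (ENSMUSG00000001506), which gives the alpha 1 chain, stood at 4392, 4079 and 4683 CPM in control replicates 1, 2 and 3. In overexpression replicates 1, 2 and 3 it stood at 2032, 4509 and 5566 CPM. The first of these was the lowest of all 6 tumours and the third the highest, so the overexpression tumours lay on both sides of the controls. Group means were 4385 ± 302.2 CPM for controls and 4035 ± 1814 CPM with overexpression (SD, n = 3 each), and the log2 fold change was -0.12 ± 0.39 (SE). Without overexpression replicate 1 it was 0.17 ± 0.15 (SE).

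Col1a2 (ENSMUSG00000029661), which gives the alpha 2 chain of the same protein, stood at 5332, 5067 and 5539 CPM in controls 1, 2 and 3, against 5271, 6167 and 8735 CPM in overexpression replicates 1, 2 and 3. Here replicate 1 of the overexpression group lay within the controls and the other two above them. The means were 5313 ± 236.5 and 6724 ± 1798 CPM (SD, n = 3 each), with a log2 fold change of 0.34 ± 0.30 (SE). It was 0.10 without overexpression replicate 3 and 0.45 without overexpression replicate 1, where edgeR gave an unadjusted p of 0.0392 and an adjusted p of 0.999. The partner chains thus differed in where they placed the same tumour: replicate 1 had 0.463 times the control mean of Col1a1 and 0.992 times that of Col1a2.

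Col3a1 (ENSMUSG00000026043), the only chain of type III collagen, was at 3323, 3106 and 3452 CPM in controls 1, 2 and 3, against 5369, 4178 and 5811 CPM in overexpression replicates 1, 2 and 3. The groups did not overlap. The mean was 3294 ± 174.9 CPM for controls and 5120 ± 844.7 CPM with overexpression (SD, n = 3 each), and the log2 fold change was 0.64 ± 0.26 (SE). In edgeR its unadjusted p was 0.044 and its adjusted p 0.70. Without overexpression replicate 1 the log2 fold change was 0.57 and edgeR's adjusted p 0.999, and with library totals in place of TMM the log2 fold change was 0.40, where the median over all genes was -0.21. Non-overlap held for 2 of the 10 genes, Col3a1 and Lox, against 13.2% of all genes tested, and with library totals in place of TMM for Col3a1 alone, against 14.9%. Leaving out overexpression replicate 1 made it 4 of 10, with Col1a2 and Sparc added and all 4 above the controls, against 19.4% of all genes in either direction. The share of all genes above the controls was not counted.

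The type V chains also parted in overexpression replicate 1. Col5a1 (ENSMUSG00000026837) stood at 632.7, 495.8 and 717.9 CPM in controls 1, 2 and 3, against 453.9, 694.0 and 684.3 CPM in overexpression replicates 1, 2 and 3, with replicate 1 the lowest of the 6. Col5a2 (ENSMUSG00000026042) stood at 1017, 843.5 and 1138 CPM in controls 1, 2 and 3, against 1175, 1083 and 1169 CPM in overexpression replicates 1, 2 and 3, with the same replicate the highest of the 6. The log2 fold changes, -0.01 (standard error 0.26) and 0.19 (standard error 0.22), were smaller in size than their standard errors. The sign of the first turned to 0.13 without overexpression replicate 1, and that of the second to -0.04 with library totals in place of TMM.

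The type VI chains lay on the same side in that tumour. Col6a1 (ENSMUSG00000001119) stood at 808.0, 727.0 and 890.7 CPM in controls 1, 2 and 3, against 519.2, 796.0 and 951.3 CPM in overexpression replicates 1, 2 and 3. Col6a2 (ENSMUSG00000020241) stood at 524.4, 428.6 and 615.6 CPM in controls 1, 2 and 3, against 295.1, 539.1 and 523.0 CPM in overexpression replicates 1, 2 and 3. In both, overexpression replicate 1 was below every other tumour, at 0.642 times the control mean for Col6a1 and 0.564 times for Col6a2, while replicate 2 lay within the range of the controls. The log2 fold changes were -0.10 (standard error 0.27) and -0.21 (standard error 0.28). Without overexpression replicate 1 they were 0.08 and -0.01.

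Fn1 (ENSMUSG00000026193), which encodes the integrin-binding glycoprotein fibronectin, varied most among the 10. It stood at 666.8, 315.8 and 826.2 CPM in controls 1, 2 and 3, against 156.8, 1066 and 261.7 CPM in overexpression replicates 1, 2 and 3. Both the lowest and the highest of the 6 tumours were in the overexpression group, and control replicate 2 lay well below its own group. The coefficient of variation was 43.3% in controls and 100.5% in overexpression tumours (n = 3 each). The smallest Fn1 count, 551.6 in overexpression replicate 1, has a counting error of 4.26%, far below that spread. The log2 fold change of -0.28 had a standard error of 0.70 and a 95% interval from -1.93 to 1.36. It was -1.52 without overexpression replicate 2 and 0.10 without overexpression replicate 1, so single tumours set its size and sign. How much of this signal came from the human tumour cells was not tested.

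Sparc (ENSMUSG00000018593), the collagen-binding protein, stood at 2969, 2662 and 3159 CPM in controls 1, 2 and 3, against 2994, 3482 and 3348 CPM in overexpression replicates 1, 2 and 3. Unlike Col1a1, it was not low in overexpression replicate 1, which had 1.02 times the control mean. The means were 2930 ± 250.7 and 3275 ± 252.4 CPM (SD, n = 3 each). The log2 fold change was 0.16 ± 0.24 (SE) and turned to -0.05 with library totals in place of TMM.

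Lox (ENSMUSG00000024529), which encodes the cross-linking enzyme lysyl oxidase, had the narrowest spread among controls, at 310.1, 305.1 and 307.5 CPM, a coefficient of variation of 0.803%. Its estimated counts there were 1434, 1349 and 1431, at which counting error alone is larger than 0.803%. The narrow spread therefore cannot be read as a trait of the gene. In overexpression tumours it stood at 320.9, 338.9 and 418.4 CPM, all above the controls with TMM scaling. Scaled by library totals instead, overexpression replicate 1 was below them, at 238.2 CPM against 325.5 to 340.3 CPM. The closest tumours of the 2 groups differed by little: 310.1 CPM in control replicate 1 and 320.9 CPM in overexpression replicate 1. With 1434 and 1130 estimated counts in these tumours, that gap is no larger than counting error. Its log2 fold change was 0.22 ± 0.18 (SE), which edgeR gave an unadjusted p of 0.26 (adjusted p 0.77). The log2 fold change was 0.098 without overexpression replicate 3 and 0.01 with library totals in place of TMM. Lox is a known target of the hypoxia-inducible factors, whose alpha subunit the locus of HIF1A-AS3 encodes. Any link between that locus in the implanted human cells and the level of mouse Lox was not tested.

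**Figure D2:**
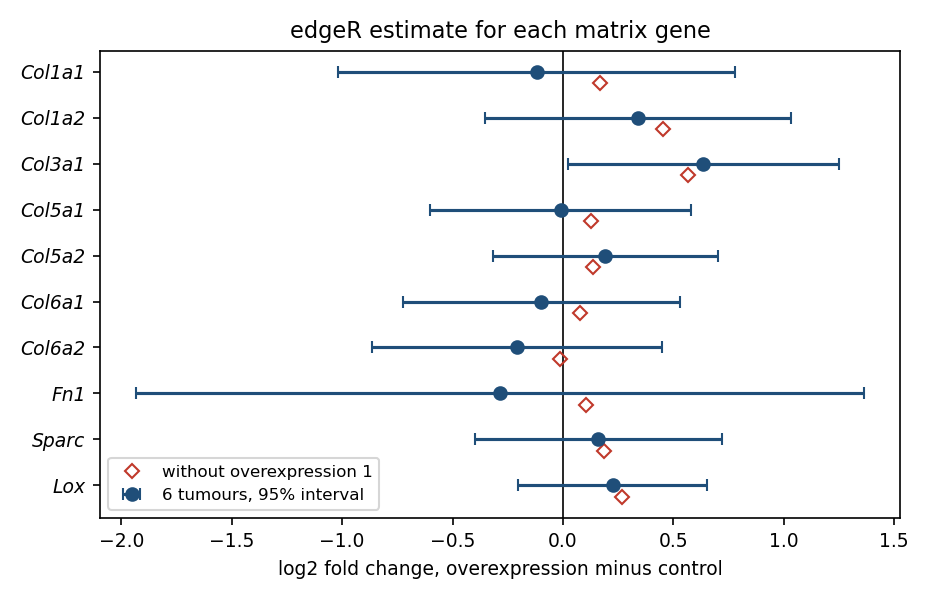
Log2 fold change of overexpression minus control tumours for each of the 10 genes, as estimated by edgeR from 6 tumours with 95% intervals that are not adjusted for the number of genes (filled circles), and without overexpression replicate 1 (open diamonds). The interval of Col3a1, 0.02 to 1.25, is the only one of the 10 that leaves out 0, and the widest is that of Fn1.

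The intervals give the range of fold changes around each estimate. For Col1a1 the 95% interval of the fold change ran from 0.493 to 1.72, for Col1a2 from 0.782 to 2.05, and for Fn1 from 0.262 to 2.57. For Lox, the narrowest, it ran from 0.869 to 1.57. Counting error was at most 4.26% for any of the 10 genes in any library, small beside these ranges.

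Across genes, each overexpression tumour had its own pattern. Replicate 1 was below all 3 controls for 5 genes (Col1a1, Col5a1, Col6a1, Col6a2 and Fn1), against 38.7% of all genes tested, and above all 3 for Col3a1, Col5a2 and Lox, against 35.1%. It was the lowest of all 6 tumours for those same 5 genes, against 28.5% of all genes. With library totals in place of TMM this tumour was below all controls for 9 of the 10, all but Col3a1, against 69% of all genes tested. Replicate 2 was below all controls for 0 genes, against 25% of all genes, and above them for Col1a2, Col3a1, Fn1, Sparc and Lox, against 31.1%. Replicate 3 was above all controls for 7 genes (Col1a1, Col1a2, Col3a1, Col5a2, Col6a1, Sparc and Lox), against 34.1% of all genes, and below them for Fn1 alone, against 33.6%. Any single tumour lay outside the range of 3 controls for a large share of all genes, and these counts describe the 3 tumours one by one.

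In log2 units, the largest single departures were in overexpression replicate 1. Its log2 CPM minus the control mean was -1.83 for Fn1 and -1.11 for Col1a1, and 3.18% and 8.24% of all genes tested were as low or lower in that tumour. In overexpression replicate 3 this difference was -1.09 for Fn1 and 0.82 for Col3a1, and in replicate 2 it was 0.93 for Fn1. In replicate 3, 4.88% of all genes tested were as low as Fn1 or lower and 6.05% as high as Col3a1 or higher. In replicate 2, 1.93% were as high as Fn1 or higher. Variation was wider among overexpression than among control tumours for 8 of the 10 genes, the exceptions being Col5a2 and Sparc. Without overexpression replicate 1 it was 6 of the 10: the coefficient of variation with overexpression went from 22.3% to 0.994% for Col5a1 and from 30.2% to 2.13% for Col6a2, below their controls at 18.2% and 17.9%. The whole table was also wider with overexpression: the median coefficient of variation of the 10 genes was 9.34% for controls and 24.5% with overexpression, and that of all genes tested was 14.5% and 26.5%. The share of all genes with wider variation was not counted.

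**Figure D3:**
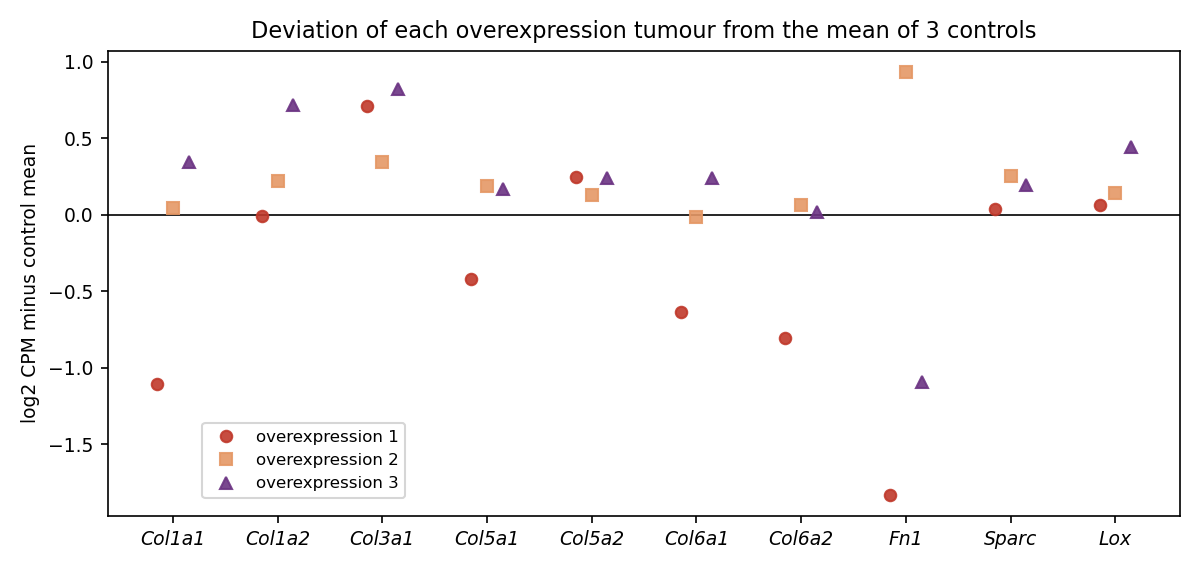
Log2 CPM of each overexpression tumour minus the mean of the 3 controls, for each of the 10 genes, with TMM scaling. Replicate 1 (circles) stands at -1.11 for Col1a1 and -1.83 for Fn1 but at 0.71 for Col3a1, while replicates 2 and 3 lie near or above 0 for every gene except Fn1, which is at -1.09 in replicate 3.

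Ratios of 2 genes within a tumour do not depend on how libraries are scaled, and they showed the balance between chains directly. They are ratios of estimated counts, not corrected for transcript length, so only their differences between tumours can be read. Col1a1 to Col1a2, the ratio of the type I chains, was 0.824, 0.805 and 0.845 in controls 1, 2 and 3, and 0.386, 0.731 and 0.637 in overexpression replicates 1, 2 and 3. Every overexpression tumour lay below every control, and replicate 1 had 0.467 times the control mean. The mean was 0.825 ± 0.0203 for controls and 0.585 ± 0.179 with overexpression (SD, n = 3 each).

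Relative to both type I chains, Col3a1 was higher in each overexpression tumour than in any control. Col3a1 to Col1a1 was 0.757, 0.761 and 0.737 in controls and 2.64, 0.927 and 1.04 in overexpression tumours. Col3a1 to Col1a2, a ratio added after the values were seen, was 0.623, 0.613 and 0.623 in controls and 1.02, 0.678 and 0.665 in overexpression tumours. In controls the highest value of this last ratio was only 1.02 times the lowest, and all 3 overexpression tumours lay above that range. A range that narrow is about the size of counting error, so it does not show a tightly held balance. Replicate 1 was the farthest from the controls in all 3 of these ratios, and without it the difference of the log2 ratios between the groups went from 0.32 to 0.12 for Col3a1 to Col1a2, from 0.86 to 0.39 for Col3a1 to Col1a1 and from -0.55 to -0.27 for Col1a1 to Col1a2.

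The type V and type VI pairs gave no such separation. Col5a1 to Col5a2 was 0.622, 0.588 and 0.631 in controls and 0.386, 0.641 and 0.585 in overexpression tumours, so only replicate 1 stood well apart. Col6a1 to Col6a2 was 1.54, 1.70 and 1.45 in controls and 1.76, 1.48 and 1.82 in overexpression tumours, and the groups overlapped. Fn1 to Col1a1 was 0.152, 0.0774 and 0.176 in controls and 0.0771, 0.236 and 0.0470 in overexpression tumours, again with overlap. Of all 45 ratios between the 10 genes, 14 did not overlap between the groups, against 13.1% of all ratios between 2 of the 12245 tested genes that were above 0 in every library. Of these 14, 7 were among the 9 ratios that involve Col3a1, against 47.6% of the ratios of Col3a1 to all those genes, so a ratio with Col3a1 often set the groups apart whatever the partner. Without overexpression replicate 1 the number was 16 of 45, against 19.7% of all ratios. The ratios share genes and are not independent of each other. The highest value was a larger multiple of the lowest among overexpression than among control tumours in 44 of the 45. The share over all ratios was not counted. Over all genes tested, variation was also wider with overexpression, with a median coefficient of variation of 26.5% against 14.5% in controls.

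**Figure D4:**
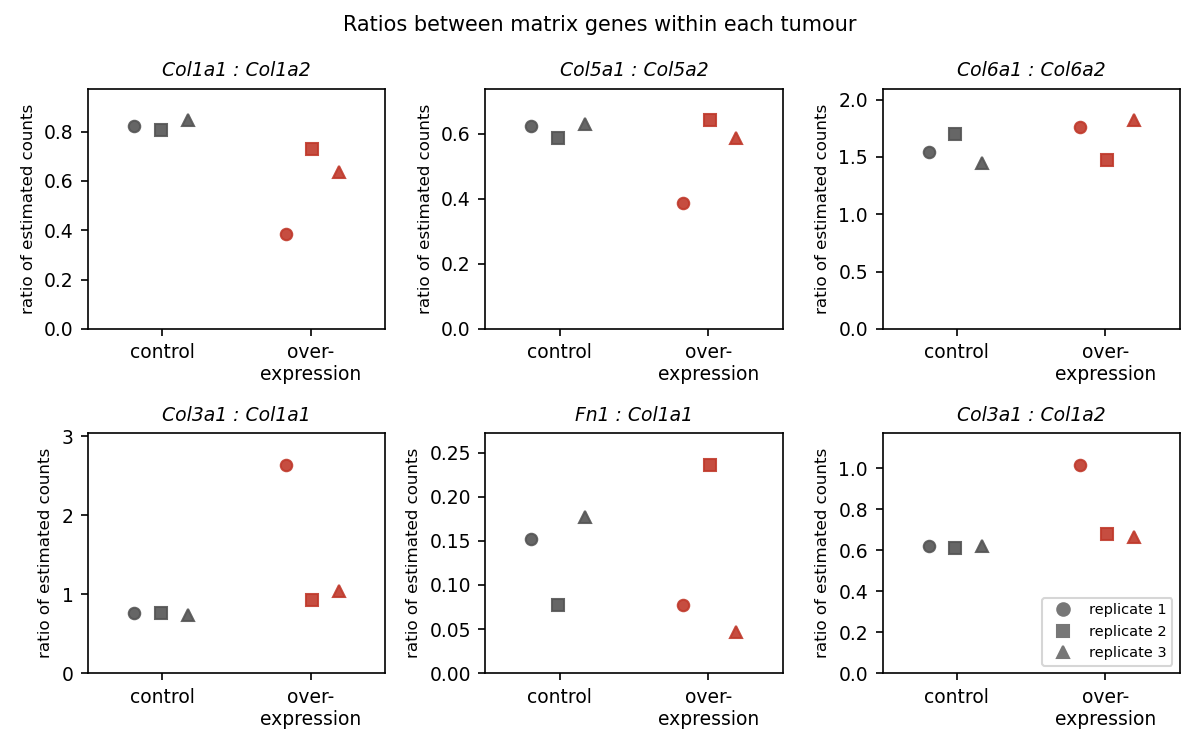
Ratio of estimated counts of 2 genes within each tumour, from 0, for 6 pairs, with controls in grey, overexpression tumours in red and symbols for replicates. The controls lie close together in each panel except Fn1 to Col1a1, and all overexpression tumours lie below the controls for Col1a1 to Col1a2 and above them for both ratios of Col3a1.

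Among the collagen genes, base composition of the human counterparts differed between those that were low and those that were not low in overexpression replicate 1. Mouse transcript sequences were not used here, so the human counterparts in GENCODE release 29 were read by symbol, taking the transcript with the longest coding sequence. The 4 collagen genes below all controls in that tumour had human counterparts with 61.1% (Col1a1), 60.2% (Col5a1), 63.5% (Col6a1) and 66.4% (Col6a2) G and C. The 3 other collagen genes had 54.8% (Col1a2), 52.1% (Col3a1) and 48.0% (Col5a2). The other 3 genes did not follow one rule: Fn1, the farthest below the controls in that tumour, had 50.2%, while Sparc and Lox, which were not below them, had 47.3% and 39.6%. Over all 10 genes Pearson's r between this share and the deviation of replicate 1 was -0.40 and Spearman's rho -0.56. For replicate 2 they were -0.35 and -0.55, and for replicate 3 -0.018 and -0.15. Transcript length of the human counterparts gave Pearson's r of -0.37, 0.55 and -0.46 for replicates 1, 2 and 3. Spearman's rho for length was -0.13, 0.35 and -0.14. These relations are across 10 genes, which are not independent, and all 3 deviations share the same controls. The split among the collagens was noticed after the values were seen, and the part of base composition in the result was not tested.

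As a set, the 10 genes made up 2.18%, 1.91% and 2.33% of all estimated counts in controls 1, 2 and 3, and 1.37%, 2.33% and 2.80% in overexpression replicates 1, 2 and 3. By this share replicate 1 was the poorest of the 6 tumours in matrix RNA and replicate 3 the richest. With TMM scaling the summed level was 19975, 18029 and 21329 CPM in controls and 18587, 22853 and 27468 CPM in overexpression tumours, so replicate 1 then lay within the controls and the other two above them. Means were 19778 ± 1659 and 22969 ± 4442 CPM (SD, n = 3 each), a log2 difference of 0.20, which was 0.34 without overexpression replicate 1 and 0.063 without overexpression replicate 3. The groups overlapped on both scales.

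Within that sum, the make-up of replicate 1 was unlike the others. Col1a1 gave 10.9% of its matrix counts, against 22.0%, 22.6% and 22.0% in controls and 19.7% and 20.3% in overexpression replicates 2 and 3. Col3a1 gave 28.9%, against 16.2% to 17.2% in controls and 18.3% and 21.2% in the other overexpression tumours. Among all rows ordered by count, Col1a1 ranked 8 or 9 in 5 tumours and 114 in overexpression replicate 1. Col3a1 ranked 7 to 15 in those 5 tumours and 25 in that one, and Col1a2 ranked 3 to 6 and 27. Such ranks depend on transcript length as well as abundance, and they compare a gene only with itself between tumours.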

How the data were processed

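The authors deposited 1 table of estimated counts per mouse gene, unnormalized and with a column for each tumour, per the file header. Its name points to salmon, with version and annotation not stated. The submitters' processing notes name edgeR, DESeq2, featureCounts 2.0.6, HISAT2 2.2.1, Trimmomatic 0.39 and the build mm10, in no stated role. All 6 columns matched a tumour by name. The 10 genes and their names came with the question studied, and the members and lists were chosen with earlier results of these data known. Every one of the 10 is described, whatever its test gave. The table pairs no ID with a name and 0 of its 77134 IDs matched the tables used here, so lists of other matrix genes and of cell markers were not analysed.

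Estimated counts were rounded and filtered with edgeR 4.0.16's filterByExpr (R 4.3.3), which left 12637 genes with 99.5% of counts. Libraries were scaled by TMM and compared with edgeR's robust quasi-likelihood test, group only, Benjamini-Hochberg over all genes tested, threshold 0.05, and the code was tested on simulated data. Standard errors are the log2 fold change over the square root of F. Deviations use log2 CPM with a prior count of 2. Summed levels and ratios carry no test. The ratio of Col3a1 to Col1a2, the counts over all pairs of genes, the overlap of groups without overexpression replicate 1 or under other scalings, and the reading of human counterparts were added after the values were seen. No 2 libraries were duplicates: the closest pair differed by 4.66 times the sampling variance. Alternatives were DESeq2 1.42.0, limma-voom (limma 3.58.1), other scalings, no filter, unrounded counts, a replicate block, non-robust fitting and leaving out each library.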

Additional observations from a re-analysis of the deposited data

How the results depend on the processing

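None of the 10 genes passed an adjusted p of 0.05 in any of 15 alternatives each. The lowest adjusted p values were 0.147 for Fn1 and 0.181 for Col3a1, both in edgeR without overexpression replicate 2. Col1a2, Col3a1, Col6a2 and Lox kept their direction in all 15. Signs turned with library totals only for Col5a2 (-0.039) and Sparc (-0.054). Leaving out 1 library gave log2 fold changes from -0.43 to 0.17 for Col1a1, -0.14 to 0.13 for Col5a1, -0.30 to 0.078 for Col6a1 and -1.52 to 0.10 for Fn1. These signs turned without overexpression replicate 1 for all 4, for Col5a1 also without control replicate 1 or 3, and for Fn1 also without control replicate 3 or overexpression replicate 3; the cause was not tested. For the other 6 the ranges were 0.10 to 0.45 for Col1a2, 0.53 to 0.77 for Col3a1, 0.088 to 0.30 for Col5a2, -0.35 to -0.011 for Col6a2, 0.0995 to 0.22 for Sparc and 0.098 to 0.27 for Lox. The number of genes changed over the whole table, 2, was 29 with DESeq2, 7 with limma-voom, 4 with library totals only, 14 with no filter and 0 with a replicate block (414 with unadjusted p under 0.05 in edgeR), and 0 to 14 with 1 library left out. The log2 difference of the summed level, 0.20, was -0.040 with library totals only, 0.063 without overexpression replicate 3 and 0.34 without overexpression replicate 1. Under the replicate block the log2 fold changes were 0.62 for Col3a1 and -0.79 for Fn1, and it changed no call of the 10 genes. Same-numbered tumours did not deviate together (r of -0.0884, -0.336 and -0.101), and the labels do not say that numbers pair tumours. With 3 tumours a group, the spread between tumours more than the depth set the standard errors of the fold changes. The non-overlap of Lox, however, rested on a gap no larger than counting error.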
